A study of Mus musculus with 12 samples.

Results

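Hcn2, Hcn3 and Hcn4 encode subunits of the hyperpolarization-activated, cyclic nucleotide-gated (HCN) channels, and they are 3 of the 20775 genes listed by symbol in each of the 2 deposited expression tables. They were taken by name, as members of this channel family. RNA was sequenced from 12 samples in 4 groups of 3. At E10.5, Tnnt-Cre;Med30 f/f hearts (cKO) were compared with those of Med30 f/f littermates without Cre (Ctrl), which the labels call wild type. In adults, cardiomyocytes of αMHC-MerCreMer;Med30 f/f mice (icKO) were compared with cardiomyocytes of Cre-negative Med30 f/f mice (Ctrl). Both adult groups received tamoxifen, and the cells were collected 4 weeks later, at a labelled age of 3 months. The labels give C57BL/6 as the strain of all samples, and the floxed allele, in which exon 1 of Med30 is flanked by loxP sites, came from gene targeting in 129-SV/J embryonic stem cells. Tnnt-Cre and αMHC-MerCreMer act in cardiomyocytes, while the E10.5 samples are whole hearts. The controls lack Cre and no sample here carries Cre without the floxed allele, so in these libraries the effect of Cre on RNA cannot be told apart from the loss of Med30. The study's separate check of tamoxifen and αMHC-MerCreMer without a floxed allele, which read survival and heart function, is not among these samples. Whether a sample is 1 animal or a pool is not given in the sources used here, so p values measure the spread between these samples.

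HCN subunits assemble as tetramers that open when the membrane becomes more negative and then pass an inward cation current, called If in the heart. Cyclic AMP binds a domain in the intracellular C-terminal part and makes opening easier, which is how adrenergic and muscarinic inputs reach the current. Hcn4 is the main subunit of the sinus node and is also made by the myocardium of the early embryonic heart. Hcn2 is the common HCN subunit of adult ventricular muscle, and Hcn3 is a minor subunit of the heart that responds little to cyclic AMP.

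The values are RPKM, reads per kilobase of transcript scaled to the reads of a library, which allow levels to be compared between genes. From the spacing of low values the libraries hold 13.7 to 20 M reads at E10.5 and 12 to 17.5 M reads at 4 weeks. Expression was tested with limma on log2(RPKM + 0.1) over genes with a mean RPKM above 1, and a call required a log2 fold change beyond 1 and a Benjamini-Hochberg adjusted p under 0.05. On this scale the change of a low gene is understated. Of 10885 genes tested at E10.5, 0.542% were called lower and 0.239% higher. Of 9517 genes tested at 4 weeks, 8.45% were called lower and 28.0% higher. After median-ratio scaling, which centres the libraries on the typical gene, the balance at 4 weeks turned to 15.5% lower and 11.6% higher, and at E10.5 it was 0.377% and 0.322%. Over the genes tested, the log2 fold change had a median of -0.13 at E10.5 and 0.57 at 4 weeks, and the scaling moves it to -0.01 and 0.04. Values after this scaling are given beside those as deposited for the members and where they change a call. The targeted gene was lower in every knockout library. Med30 was at 10.6, 13.3 and 11.3 RPKM in Ctrl hearts and 1.38, 2.02 and 1.004 RPKM in cKO hearts. At 4 weeks Med30 was at 7.66, 7.45 and 7.66 RPKM in the Ctrl samples and 3.81, 3.16 and 1.83 RPKM in the icKO samples.

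Hcn4 lies at chr9:58823412-58863175 on the plus strand of GRCm38 (ENSMUSG00000032338.9), with 1 transcript of 8 exons and 6118 bases in GENCODE M21. Its protein-coding neighbours are Rec114, 79448 bases below, and Neo1, 11512 bases above. Hcn2 lies at chr10:79716634-79736108 on the plus strand (ENSMUSG00000020331.9), and its RefSeq-matched transcript has 8 exons and 3195 bases. Polrmt ends 15 bases from the end of Hcn2 on the opposite strand, and Bsg lies 4665 bases before its start. Hcn3 lies at chr3:89146074-89160196 on the minus strand (ENSMUSG00000028051.10), with 8 exons and 4002 bases in its coding transcript. Its 3′ end overlaps Pklr, on the plus strand, by 711 bases in GENCODE and by 41 bases in RefSeq. Whether strand was used in counting is not given in the sources used here.

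Hcn2 and Hcn4 are the members whose levels moved at 4 weeks, and the 250 bases before their RefSeq starts on GRCm38.p6 are shown because both stretches are rich in G and C and hold no TATA box. The RefSeq promoter table held an entry for 2 of the 3 members. The stretch of Hcn2 is chr10:79716384-79716633 and that of Hcn4 is chr9:58822699-58822948, both on the plus strand. The RefSeq start of Hcn4, at 58822949, lies before the GENCODE start. Capitals mark every match to a motif searched, on either strand.
Hcn2: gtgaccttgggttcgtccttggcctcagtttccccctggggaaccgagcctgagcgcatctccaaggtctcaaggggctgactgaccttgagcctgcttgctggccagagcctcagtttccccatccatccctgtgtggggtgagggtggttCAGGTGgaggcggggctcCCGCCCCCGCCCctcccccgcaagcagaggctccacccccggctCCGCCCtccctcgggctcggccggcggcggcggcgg
Hcn4: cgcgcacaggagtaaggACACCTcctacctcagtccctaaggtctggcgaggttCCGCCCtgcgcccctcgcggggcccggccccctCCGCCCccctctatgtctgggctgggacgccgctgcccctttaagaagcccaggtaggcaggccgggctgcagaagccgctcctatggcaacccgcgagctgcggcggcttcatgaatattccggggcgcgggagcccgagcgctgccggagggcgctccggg

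The stretch of Hcn2 is 70.4% G and C and that of Hcn4 71.2%, above 91.2% and 92.2% of the 32851 promoter stretches of that length. In the windows of 300 bases, which add 50 bases after the start, the GC box (GGGCGG) was found 3 times at Hcn2 and 2 times at Hcn4, and 35.7% of all windows hold at least 1. The T-box core (AGGTGT) was found 1 time at Hcn4, 233 bases before the start, and 13.7% of windows hold it. The E-box (CANNTG) was found 1 time at Hcn2, 98 bases before the start, and 72.3% of windows hold it. No match was found at either gene for the TATA box (TATAAA, in 13.6% of windows), the GATA core (GATAA, 25.4%), the NKX2 core (AAGTG, 46.4%) or the core of the cyclic AMP response element (TGACG, 20.8%). These matches describe letters and do not show binding.

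Hcn4 was the main HCN transcript of the E10.5 heart, and its level was lower in every cKO heart. In Ctrl hearts Hcn4 was at 7.61, 7.40 and 7.52 RPKM (7.51 ± 0.103, SD, n = 3). In cKO hearts it was at 4.85, 3.99 and 2.71 RPKM (3.85 ± 1.08, SD, n = 3). The groups did not overlap, and the mean was 48.7% lower in cKO. The Ctrl hearts lay close together while the cKO hearts were spread, with replicate 3 the lowest. About 719 to 931 reads stood behind each Ctrl value and 228 to 520 behind each cKO value, so reads did not limit the comparison.

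At E10.5 the log2 fold change of Hcn4 was -0.98 ± 0.19 (SE), with a limma adjusted p of 0.028. It passed the p threshold and missed the fold threshold, so Hcn4 was not among the genes called lower at this stage. Only 1.04% of the genes tested had a log2 fold change as low or lower. Of all genes tested, 22.6% had cKO hearts that all lay below the Ctrl hearts. After median-ratio scaling the log2 fold change was -0.87 ± 0.21 and the limma adjusted p 0.0503. The limma adjusted p also rose above 0.05 without Ctrl replicate 1 (0.0874), Ctrl replicate 2 (0.0567), Ctrl replicate 3 (0.106) or cKO replicate 2 (0.0776). Without cKO replicate 1, the cKO heart with the highest Hcn4 level, Hcn4 was at -1.17 ± 0.18 (SE, limma adjusted p = 0.0309) and met both thresholds for a call. Without cKO replicate 3, the lowest, it was at -0.76 ± 0.14 (SE, limma adjusted p = 0.0194).

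Within a library, the level of Hcn4 relative to each of 6 cardiomyocyte markers does not depend on scaling. At E10.5 the ratio of Hcn4 to Myh6, Actn2, Ttn and Ryr2 was lower in every cKO heart than in every Ctrl heart. The mean log2 ratio changed by -0.93 against Myh6, the α myosin heavy chain, and by -1.17 against Ttn, titin. Against Tnnt2 and Tnni3, cardiac troponins T and I, the groups overlapped, with changes of -0.55 and -0.62. The 6 markers summed to 1406 to 2053 RPKM in Ctrl hearts and 1324 to 1668 RPKM in cKO hearts, and 0 of the 6 were called. Fewer cells of a type and less RNA per cell cannot be told apart in such samples.

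Markers of other cells were also read at E10.5. Of 5 genes listed as atrial markers, 4 were tested and 0 were called. Their sum was 2116 to 2726 RPKM in Ctrl hearts and 1699 to 2263 RPKM in cKO hearts, with overlap. Whether these genes mark atrial cells in the E10.5 heart was not tested. Among them Nppa, the atrial natriuretic peptide, was lower without overlap, at 500.9 ± 67.5 RPKM in Ctrl and 366.0 ± 26.5 RPKM in cKO (SD, n = 3), and did not pass the p threshold (log2 fold change -0.45, limma adjusted p = 0.165). Bmp10 went the other way, at 25.9 ± 4.59 and 36.4 ± 2.56 RPKM (SD, n = 3). The 5 macrophage markers summed to 8.48 to 11.1 RPKM in Ctrl hearts and 4.88 to 6.82 RPKM in cKO hearts. Most of that was Lyz2, which was called lower (log2 fold change -1.04) and missed the fold threshold after median-ratio scaling (-0.92). The part of these cells in the Hcn4 level was not tested.

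At 4 weeks Hcn4 fell to a low level in icKO cardiomyocytes. In Ctrl cardiomyocytes it was at 3.52, 3.48 and 3.84 RPKM (3.61 ± 0.197, SD, n = 3). In icKO cardiomyocytes it was at 0.218, 0.188 and 0.482 RPKM (0.296 ± 0.162, SD, n = 3). Every icKO value lay far below every Ctrl value, and the mean was 91.8% lower. The icKO values rested on about 23, 19 and 35 reads, against 284 to 398 in Ctrl. In the 4-week libraries 3 reads of Hcn4 would give 0.028 to 0.041 RPKM.

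Hcn4 was called lower, with a log2 fold change of -3.30 ± 0.28 (SE, limma adjusted p = 7.25e-06). It was 82nd from the bottom of the 9517 genes, where 0.862% lay as low or lower. After median-ratio scaling the log2 fold change was -3.75 ± 0.28. Of all genes tested, 18.9% had icKO samples that all lay below the Ctrl samples.

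Hcn2 was the most abundant HCN transcript of adult cardiomyocytes and also fell. In Ctrl cardiomyocytes it was at 9.32, 8.67 and 9.17 RPKM (9.05 ± 0.341, SD, n = 3). In icKO cardiomyocytes it was at 3.14, 2.501 and 3.86 RPKM (3.17 ± 0.680, SD, n = 3). The groups did not overlap and the mean was 65.0% lower. Hcn2 was called lower, at a log2 fold change of -1.51 ± 0.15 (SE, limma adjusted p = 1.94e-05), and 4.74% of the genes tested lay as low or lower. After median-ratio scaling it was -2.03 ± 0.16.

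Of the 3 members, 2 were tested at 4 weeks and both were called lower, against 8.45% of all genes tested, or 15.5% after median-ratio scaling, under which both calls held. The neighbours of both genes were also read. Polrmt, the mitochondrial RNA polymerase, was at 6.72 ± 0.807 RPKM in Ctrl and at 4.97 ± 0.317 RPKM in the knockout (SD, n = 3). Its log2 fold change was -0.42, or -0.95 after median-ratio scaling, and it was not called. Bsg, which encodes basigin, was at 543.5 ± 25.2 and 372.9 ± 24.1 RPKM. As deposited Bsg was not called, at a log2 fold change of -0.54. After median-ratio scaling it was called lower (-1.085, limma adjusted p = 4.62e-06), beside the 15.5% of all genes tested. Neo1, the neighbour of Hcn4, was at 15.7 ± 1.86 and 15.3 ± 1.39 RPKM, and its groups overlapped.

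At E10.5 Hcn2 was close to the limit of detection. Its values were 0.093, 0.354 and 0.155 RPKM in Ctrl hearts and 0.071, 0.035 and 0.159 RPKM in cKO hearts, and the groups overlapped. They correspond to 6, 18 and 8 reads in Ctrl and 4, 2 and 7 reads in cKO, each within 0.0303 of a whole read. Summed, 32 reads in Ctrl and 13 in cKO give a ratio of depth-corrected reads of 0.433, with an exact 95% interval of 0.208 to 0.847 that covers counting error only. The reads were uneven between hearts, and 1 Ctrl heart gave 18 of the 32. With no filter on low values, the log2 fold change was -0.63 ± 0.42 (SE, limma adjusted p = 0.648), and no change was detectable. It was -0.29 without Ctrl replicate 2 and -0.91 without Ctrl replicate 1.

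Hcn3 was the lowest member in Ctrl hearts and in both 4-week groups. In cKO hearts its mean of 0.122 RPKM lay above the 0.0883 RPKM of Hcn2, through 1 library. At E10.5 it was at 0.061, 0.077 and 0.038 RPKM in Ctrl hearts, from 4, 4 and 2 reads. In cKO hearts it was at 0.349, 0.017 and 0 RPKM, from 20, 1 and 0 reads. The groups overlapped, and 20 of the 21 cKO reads came from cKO replicate 1. Against 10 Ctrl reads, the ratio of depth-corrected reads was 2.24, with an exact 95% interval of 1.01 to 5.32. That interval covers counting error only and not the spread between hearts. These read numbers follow from a gene length of 3274 bases, at which all 8 values above 0 lay within 0.0224 of a whole read, shorter than the GENCODE transcript. With no filter on low values the log2 fold change was 0.14 ± 0.64 (SE, limma adjusted p = 1), and its sign turned without cKO replicate 1 (-0.55 ± 0.14, limma adjusted p = 0.342) and with a pseudocount of 0.01 (-0.54).

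The library with the high Hcn3 value was also the highest in Pklr, the pyruvate kinase of liver and red cells, whose end overlaps that of Hcn3 on the other strand. Pklr was at 1.03, 0.402 and 0.978 RPKM in Ctrl hearts and 4.41, 0.490 and 1.83 RPKM in cKO hearts. The 5 erythroid markers read here (Hba-a1, Hba-a2, Hbb-bt, Hbb-bs and Alas2) summed to 234.2 RPKM in cKO replicate 1, and to 26.9 to 69.4 RPKM in the other 5 hearts. Hba-a1, an α globin, was at 104.9 RPKM in that library and at 10.1 to 30.5 RPKM in the others. In cKO replicate 3, by contrast, Pklr was at 1.83 RPKM, above every Ctrl heart, with 0 reads on Hcn3. The part of Pklr reads or red cells in the Hcn3 value was not tested.

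**Figure D1:**
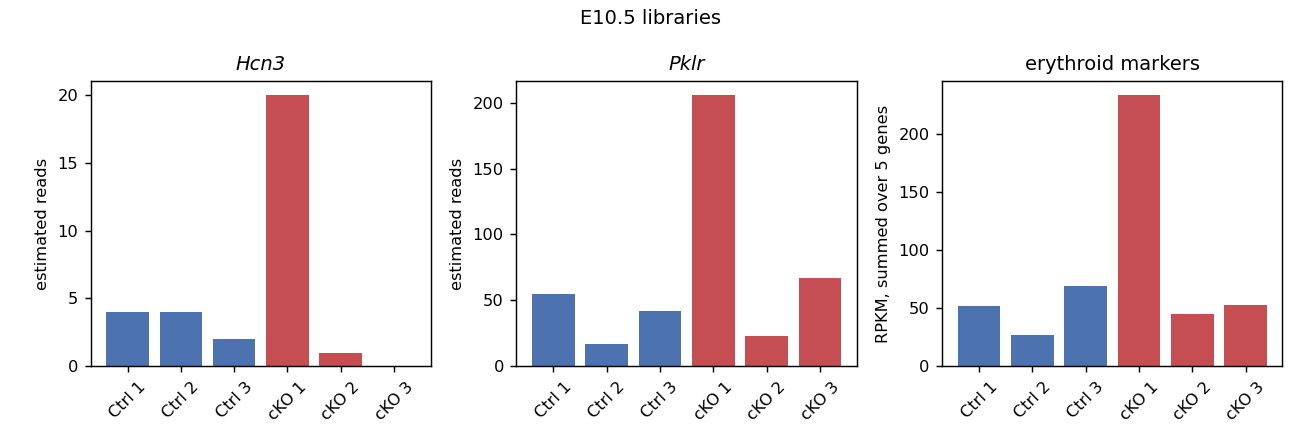
Bars give the estimated reads of Hcn3 (left), the estimated reads of Pklr (middle) and the summed RPKM of 5 erythroid markers (right) in each E10.5 library, Ctrl in blue and cKO in red, 1 bar per sample. cKO replicate 1 is the highest of the 6 hearts in all 3 panels, with 20 reads on Hcn3 and 206 on Pklr.

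At 4 weeks Hcn3 was listed at 0, 0.087 and 0 RPKM in Ctrl cardiomyocytes and at 0.018, 0.055 and 0 RPKM in icKO cardiomyocytes. This amounts to 5 reads in all Ctrl libraries together and 4 in all icKO libraries. The ratio of depth-corrected reads was 0.837, with an exact 95% interval of 0.166 to 3.89 for counting error only. A change of Hcn3 was therefore not detectable at this depth. A value of 3 reads, taken as the floor, would be 0.0522 to 0.0766 RPKM in these libraries.

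**Figure D2:**
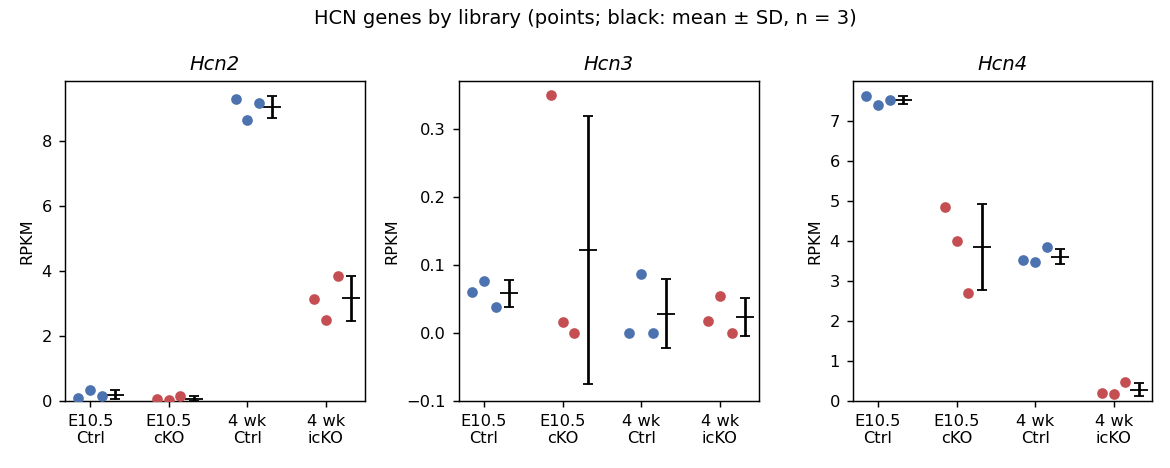
Points give the RPKM of Hcn2, Hcn3 and Hcn4 in each library, with a panel and a linear axis of its own for each gene. Black marks give the mean ± SD of 3 samples. Hcn4 was lower in the knockout at both stages, Hcn2 fell from 9.05 to 3.17 RPKM at 4 weeks, and the spread of Hcn3 in cKO came from 1 library.

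The order of the 3 genes differed between the stages. In the Ctrl hearts Hcn4 made up 94.5% to 98% of the summed RPKM of Hcn2, Hcn3 and Hcn4, and 92% to 98.7% in the cKO hearts. The ranges of Hcn2 and Hcn3 were apart in the Ctrl hearts, at 0.093 to 0.354 and 0.038 to 0.077 RPKM, and overlapped in the cKO hearts. In the Ctrl cardiomyocytes Hcn2 made up 70.5% to 72.6% and Hcn4 27.4% to 29.5%. In the icKO cardiomyocytes Hcn2 made up 88.9% to 93% and Hcn4 6.45% to 11.1%. At 4 weeks no range of level overlapped that of the next gene in either group. Across the groups, Hcn4 was highest in E10.5 Ctrl, followed by E10.5 cKO and 4-week Ctrl, whose ranges overlapped, and then by 4-week icKO. Levels set across the stages come from separate tables and were not tested.

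Summed over the 3 genes, the E10.5 level was 7.77 ± 0.0603 RPKM in Ctrl hearts and 4.06 ± 1.2 RPKM in cKO hearts (SD, n = 3). At 4 weeks the sum was 12.7 ± 0.41 RPKM in Ctrl samples and 3.49 ± 0.805 RPKM in icKO samples (SD, n = 3). The groups did not overlap at either stage. The two-sided exact permutation p was 0.1 each time, the smallest that 3 against 3 allows. The ratio of Hcn2 to Hcn4 within a library was 2.65, 2.49 and 2.39 in Ctrl cardiomyocytes and 14.4, 13.3 and 8.01 in icKO cardiomyocytes. Its log2 rose by 2.20 from 1.33 to 3.53 (exact permutation p = 0.1, two-sided), so Hcn4 lost more of its level than Hcn2 under any scaling of the libraries.

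**Figure D3:**
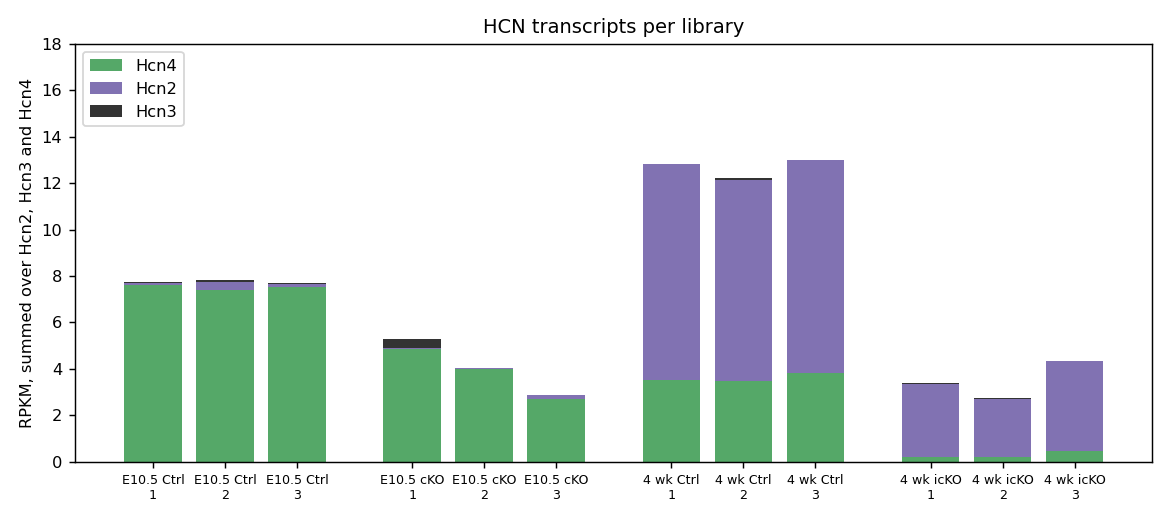
Stacked bars give the RPKM of Hcn4, Hcn2 and Hcn3, summed within each of the 12 libraries, 1 bar per sample. Hcn4 fills most of every E10.5 bar and Hcn2 most of every 4-week bar, and the icKO bars reach 2.74 to 4.34 RPKM against 12.2 to 13.01 RPKM in Ctrl.

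The knockout effect on Hcn4 differed between the stages. Its log2 fold change at 4 weeks minus that at E10.5 was -2.32 ± 0.35 (SE, limma adjusted p = 7.02e-05), and 9.29% of the 8909 genes tested at both stages passed the p threshold in this direction. After median-ratio scaling the difference was -2.89 ± 0.37. For Hcn2, tested with no filter, the difference was -0.87 ± 0.48 (SE, limma adjusted p = 0.222). It passed the threshold with a pseudocount of 1 (-1.15 ± 0.17, limma adjusted p = 0.000931) and without Ctrl replicate 2 of E10.5 (-1.22 ± 0.39, limma adjusted p = 0.0454). For Hcn3 it was -0.15 ± 0.75 (SE, limma adjusted p = 1). Cre driver, stage, whole heart against isolated cardiomyocytes and time since deletion all differ between the stages and cannot be told apart.

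**Figure D4:**
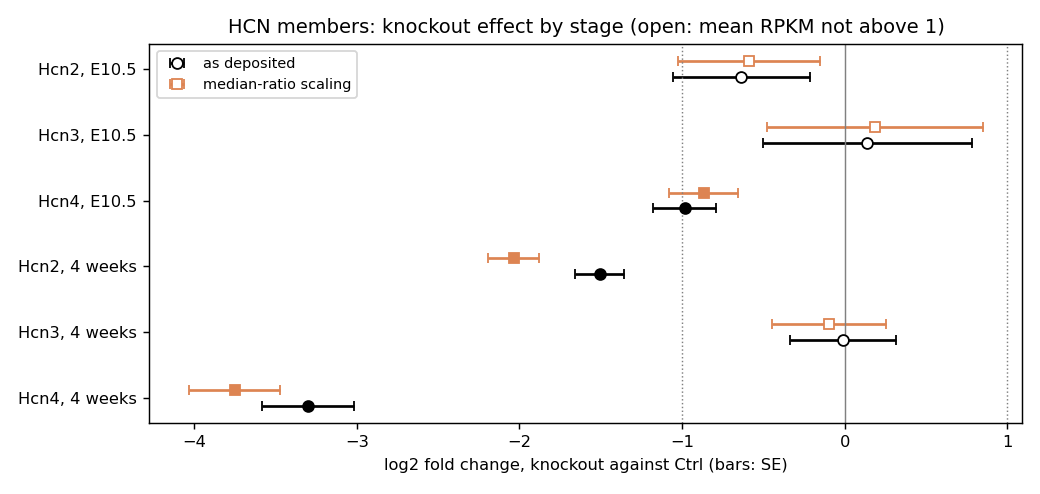
The log2 fold change of each member, knockout against Ctrl, with its SE, for values as deposited (black circles) and after median-ratio scaling (orange squares). Open symbols are members whose mean RPKM was not above 1. Dotted lines mark a log2 fold change of 1 in either direction. Both values of Hcn4 at 4 weeks lie below -3 and both values of Hcn3 at either stage have an SE that crosses 0.

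Markers of other cells were read beside the 4-week results. Of the 6 cardiomyocyte markers, 3 were called lower (Myh6, Ryr2, Tnni3) and none was called higher, beside 8.45% and 28.0% of all genes tested. After median-ratio scaling 5 of 6 were called lower, beside 15.5% of all genes tested. Actn2, α-actinin, went the other way, at 626.3 ± 30.7 RPKM in Ctrl and 1139 ± 107 RPKM in icKO (SD, n = 3), a log2 fold change of 0.86 that passed the p threshold only (limma adjusted p = 2.48e-05). After median-ratio scaling the log2 fold change of Actn2 was 0.32 (limma adjusted p = 0.00965). The sum of the 6 was 11843 to 12521 RPKM in Ctrl and 4448 to 5276 RPKM in icKO. Relative to each marker within a library, Hcn4 was lower without overlap for 4 of 6, and overlapped for Myh6 (-0.40) and Ryr2 (-0.90). Hcn2 was lower without overlap relative to Actn2 (-2.40), Ttn (-0.97) and Tnnt2 (-0.79), and higher without overlap relative to Myh6 (1.81), Ryr2 (1.302) and Tnni3 (0.58).

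Atrial and nodal cells make more Hcn4 than ventricular cells, so their markers were read at 4 weeks. Of 5 atrial markers 3 were tested at 4 weeks and 2, Nppa and Myl4, were called higher, beside 28.0% of all genes tested. Both calls held after median-ratio scaling, beside 11.6% of all genes tested. The 5 atrial markers summed to 104.0 to 177.7 RPKM in Ctrl and 712.4 to 1185 RPKM in icKO, most of it Nppa, which ventricular muscle also makes under stress. Myl7, the atrial regulatory light chain, was at 0.389 to 0.518 RPKM in Ctrl and at 7.30, 0.205 and 0.715 RPKM in icKO. Sln was at 0 to 0.114 RPKM in all 6 libraries, Bmp10 at 0 in 5 of them, Shox2 at 0 to 0.069 RPKM and Isl1 at 0. Shox2 and Isl1 belong to a sinus node list of 13 genes. From that list 3 were tested at 4 weeks, and all 3 (Smoc2, Igfbp5 and Rgs6) were called lower, beside 8.45% of all genes tested. The 6 fibroblast markers summed to 4.14 to 6.88 RPKM in Ctrl and 26.6 to 43.2 RPKM in icKO. Of these, 3 of 3 tested were called higher, or 2 of 3 after median-ratio scaling, where Dcn was at 0.60. The shares of all genes tested were again 28.0% and 11.6%. The 5 macrophage markers summed to 2.41 to 3.95 RPKM in Ctrl and 5.03 to 7.72 RPKM in icKO. Among them Lyz2 was called higher (log2 fold change 1.105) and was not called after median-ratio scaling (0.59, limma adjusted p = 0.138). Of 5 endothelial markers 0 were called. The 4 mural markers summed to 58.9 to 66.7 RPKM in Ctrl and 14.4 to 36.6 RPKM in icKO. Most of the Ctrl sum was Abcc9, at 55.1 ± 4.54 RPKM in Ctrl and 4.97 ± 2.46 RPKM in icKO (SD, n = 3). Abcc9 was called lower, so the fall of the mural sum is that of 1 gene. Pdgfrb (log2 fold change 1.26), Rgs5 (1.14) and, with no filter, Kcnj8 (0.63) went the other way. Among these, Pdgfrb was called higher as deposited only, and Rgs5 was not called. The part of these cells in the HCN levels was not tested.

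Relatives that share the cyclic nucleotide-binding domain or its homologue were mostly too low to test. Of 14 genes, 2 were tested at E10.5 (0 called) and 1 at 4 weeks, which was called lower, beside 8.45% of all genes tested. That gene was Kcnh2, which encodes the ERG channel of the rapid delayed rectifier current. Kcnh2 was at 24.6, 24.4 and 18.6 RPKM in Ctrl cardiomyocytes and 3.07, 3.46 and 5.09 RPKM in icKO, with no overlap. Its log2 fold change was -2.53 ± 0.19 (SE, limma adjusted p = 3.29e-06). Below the filter, Cnga3 and Cngb3, cyclic nucleotide-gated channel subunits known from cones, were present in Ctrl cardiomyocytes. Cnga3 was at 1.02, 0.845 and 0.976 RPKM in Ctrl and 0.216, 0.235 and 0.211 RPKM in icKO, and with no filter its log2 fold change was -1.70 ± 0.14 (SE, limma adjusted p = 0.00102). Cngb3 was at 0.546, 0.808 and 0.863 RPKM in Ctrl and 0, 0.025 and 0.106 RPKM in icKO, with a log2 fold change of -2.59 ± 0.34 (SE, limma adjusted p = 0.00399). With no filter, 1083 of the 20775 genes were called lower at 4 weeks. Cnga3 and Cngb3 were named after their values were seen.

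Partner and trafficking proteins of HCN channels were read next. Of 12 genes, 9 were tested at E10.5, where 0 were called, and 8 at 4 weeks, where 2 were called higher and 0 lower, beside 28.0% and 8.45% of all genes tested. Their median log2 fold change at 4 weeks was 0.81, beside 0.57 for all genes tested. Flna, filamin A, an actin crosslinker, rose from 0.953, 1.60 and 1.77 RPKM to 17.0, 19.5 and 19.8 RPKM. Mrvi1, also known as IRAG1, rose from 0.139, 0.190 and 0.237 RPKM to 2.16, 1.74 and 1.78 RPKM. Both are also made by non-muscle or smooth muscle cells. Cav3, the muscle caveolin, was at 25.5 ± 0.343 RPKM in Ctrl and 45.8 ± 6.70 RPKM in icKO (SD, n = 3) and was not called, with a log2 fold change of 0.83. After median-ratio scaling it was 0.29 (limma adjusted p = 0.0594).

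Among the genes that make, degrade or sense cyclic AMP, some were called lower and some higher at 4 weeks. Of 27 genes, 20 were tested at E10.5, where 0 were called. At 4 weeks 21 were tested, 5 were called lower and 4 higher, beside 8.45% lower and 28.0% higher of all genes tested. After median-ratio scaling 9 were called lower and 3 higher, beside 15.5% and 11.6% of all genes. The median log2 fold change was 0.11, beside 0.57 for all genes tested. Among those called lower, Pde1c, a calmodulin-dependent phosphodiesterase, changed by -2.35 ± 0.16, Pde4a by -1.66 ± 0.13, and Adcy6, a main adenylyl cyclase of cardiomyocytes, by -1.60 ± 0.09 (log2, SE). Adcy6 was at 41.5, 38.9 and 40.3 RPKM in Ctrl and 12.05, 13.1 and 14.6 RPKM in icKO. Among those called higher, Gnai2 and Gnai3, inhibitory G protein subunits, changed by 1.65 ± 0.09 and 1.61 ± 0.13, and Pde8a by 1.60 ± 0.17. Adrb1 and Chrm2, the β1-adrenergic and M2 muscarinic receptors, passed the p threshold with log2 fold changes of -0.94 and -0.89 and were not called as deposited. After median-ratio scaling both were called lower, at -1.47 (limma adjusted p = 0.000212) and -1.43 (limma adjusted p = 7.99e-05).

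Most genes of the sinus node program were too low to test in adult cardiomyocytes. Of 13 genes, 8 were tested at E10.5 and 2 were called lower, beside 0.542% of all genes tested. Slitrk5 was at 7.65, 6.999 and 7.05 RPKM in Ctrl and 3.18, 2.17 and 3.51 RPKM in cKO, a log2 fold change of -1.29 ± 0.18 (SE, limma adjusted p = 0.0114). Igfbp5, an insulin-like growth factor binding protein, changed by -1.18 ± 0.23. Tbx18, a factor of the developing sinus horn, was at 10.6, 11.1 and 9.27 RPKM in Ctrl and 4.44, 7.47 and 4.42 RPKM in cKO, and with a log2 fold change of -0.95 it was not called. At 4 weeks 3 were tested and 3 were called lower, namely Smoc2 (-1.69 ± 0.20), Igfbp5 (-1.23 ± 0.17) and Rgs6 (-1.10 ± 0.15), the last a regulator that shortens muscarinic signalling. Of all genes tested, 8.45% were called lower, or 15.5% after median-ratio scaling, under which the 3 calls held.

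Of 16 transcription factors of HCN or chamber gene control, 16 were tested at E10.5 and 2 were called lower, Irx4 and Hopx. Beside them, 0.542% of all genes tested were called lower at this stage. Irx4, a factor of ventricular identity, was at 16.0, 18.2 and 18.6 RPKM in Ctrl and 6.54, 6.34 and 8.12 RPKM in cKO (log2 fold change -1.33 ± 0.13). Hopx, a homeodomain-only cofactor, changed by -1.05 ± 0.14 and was not past the fold threshold after median-ratio scaling (-0.93). At 4 weeks 13 were tested and 3 were called lower, or 4 after median-ratio scaling, beside 8.45% and 15.5% of all genes tested. Hopx changed by -1.95 ± 0.10, Tbx5 by -1.65 ± 0.17 and Irx3 by -1.63 ± 0.22. Tbx5, a T-box factor of the atria, conduction system and left ventricle, was at 9.33, 8.81 and 6.36 RPKM in Ctrl and 2.67, 2.78 and 2.09 RPKM in icKO. Rest, a repressor known to hold Hcn2 and Hcn4 low in ventricular muscle, was at 4.50 ± 0.420 RPKM in Ctrl and 7.62 ± 1.28 RPKM in icKO (SD, n = 3). Its log2 fold change of 0.74 was not called, and after median-ratio scaling it was 0.21.

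Of the other channels of pacemaking that were tested at 4 weeks, most were called lower. Of 12 genes listed, 11 were tested at E10.5 and 1 was called lower, beside 0.542% of all genes tested. That gene was Gja5, connexin 40, at 29.0, 20.5 and 28.9 RPKM in Ctrl and 5.34, 4.07 and 5.24 RPKM in cKO (log2 fold change -2.39 ± 0.17). At 4 weeks 8 were tested, 6 were called lower and 0 higher, beside 8.45% and 28.0% of all genes tested, with a median log2 fold change of -2.20 beside 0.57 for all genes tested.

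Kcnj5 and Kcnj3, the subunits of the acetylcholine-activated potassium channel, had the largest decreases among these 6, at -3.40 ± 0.20 and -3.21 ± 0.25. Kcnj5 was at 11.8, 13.2 and 15.7 RPKM in Ctrl and 0.826, 1.40 and 1.43 RPKM in icKO. Cacna1g, a T-type calcium channel, changed by -2.95 ± 0.21, and Ryr2, the calcium release channel, by -2.84 ± 0.07. Cacna1c, the L-type calcium channel of working muscle, changed by -1.57 ± 0.08 and Trpm4 by -1.54 ± 0.17 (log2, SE). Slc8a1, the sodium-calcium exchanger, at -0.42, was not called. Gjc1, connexin 45, was at 4.64 ± 0.267 RPKM in Ctrl and 7.65 ± 0.551 RPKM in icKO (SD, n = 3). Its log2 fold change of 0.71 passed the p threshold only (limma adjusted p = 0.000198), and after median-ratio scaling it was 0.18.

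**Figure D5:**
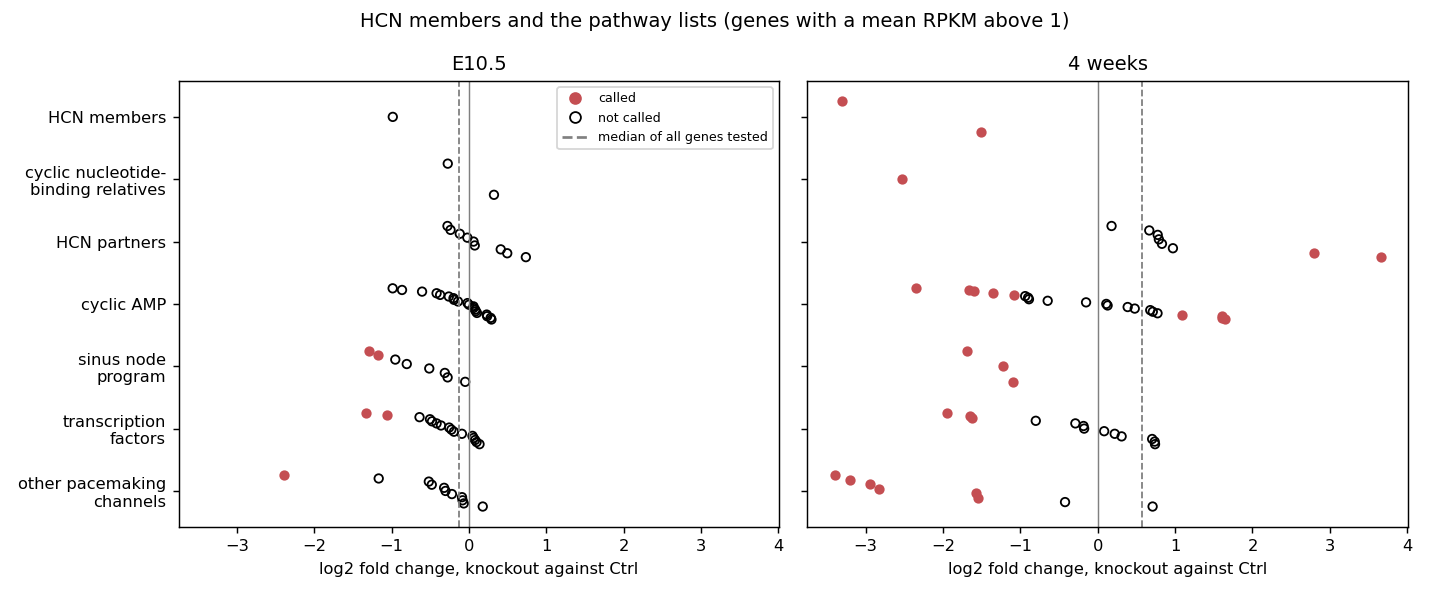
Each point is the log2 fold change, knockout against Ctrl, of 1 gene with a mean RPKM above 1, at E10.5 (left) and 4 weeks (right), in rows for the HCN members and 6 lists of related genes. Filled red points were called, open points were not, and the dashed line is the median of all genes tested at that stage. At 4 weeks both tested HCN members and 6 of 8 other pacemaking channels lie left of -1, and no HCN partner does.

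Profiles nearest to each member were sought over the 12 samples among 8909 genes, by the root mean square difference of log2(RPKM + 0.1) centred on each gene's own mean. For Hcn4 the nearest were Gmnn (0.414), Aqp4 (0.418), Efnb3 (0.420) and Kcnj5 (0.421), against a median of 1.83 over all genes compared. Kcnj5 is thus among the nearest to Hcn4 as well as a member of the channel list. Efnb3, an ephrin ligand, had group means of 29.7, 20.5, 24 and 2.24 RPKM in E10.5 Ctrl, E10.5 cKO, 4-week Ctrl and 4-week icKO.

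For Hcn2 the nearest were Ppp1r3a (0.361), Acsl1 (0.437), Coq10a (0.440), Vldlr (0.457) and Ech1 (0.461), against a median of 2.55. Ppp1r3a, a glycogen-targeting phosphatase subunit of muscle, had group means of 1.44, 1.29, 45.4 and 16.8 RPKM in the same order. Acsl1 and Ech1 serve fatty acid activation and oxidation, and Vldlr takes up lipoproteins. For Hcn3 the nearest genes, led by Rpusd3 (0.428), reflect a profile that is flat because most values lie near the pseudocount. Samples of a group share stage and genotype, so these distances are descriptions.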

How the data were processed

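Total RNA of 12 samples was sequenced after ribosomal RNA depletion with a KAPA RiboErase kit. The labels' processing notes name cutadapt 2.6, STAR 2.5.3a, HOMER 4.11.1 and mm10. The authors deposited 1 table per stage with RPKM per sample for 20775 gene symbols. The reads to which RPKM were scaled, and the use of strand, are not given in the sources used here. Columns with the authors' mean RPKM, and with the log2 fold change and FDR of the authors' own DESeq2 1.12.4 comparison, were not used. In the E10.5 table the knockout columns are headed icKO, and they were mapped to the cKO samples.

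The HCN members and all gene lists were chosen with earlier results of these data known. Each stage was fitted with limma 3.58.1 (R 4.3.3; lmFit, eBayes with trend, checked on simulated data) on log2(RPKM + 0.1), keeping genes whose mean RPKM exceeded 1, with Benjamini-Hochberg adjustment over all genes tested. A member under that mean was fitted with no filter. The difference between stages was a contrast over 12 samples. Depth was estimated as the read total at which values of up to 12 reads lay nearest to whole reads. At that depth 62.8% to 71.3% of values lay within 0.1 of one, where chance gives 20%. Read numbers, intervals and the floor of 3 reads cover counting error only. The genes named are the members, Med30, neighbours of members, the 5 nearest profiles of a member, and up to 6 called genes per list and stage. Some genes that these rules or lists hold are not reported here. Other genes, such as Actn2, Cnga3, Cngb3, Cav3, Adrb1, Chrm2, Tbx18, Rest, Slc8a1, Gjc1 and the markers given by value, were named after their values were seen. Alternatives were pseudocounts of 1 and 0.01, no filter, a mean RPKM above 5, 3 other scalings, eBayes without trend, a replicate block and the omission of each sample. Coordinates are GENCODE M21 and promoter sequences RefSeq, both on GRCm38, the build of the files. Scripts used Python 3.11.15, numpy 2.4.6, pandas 2.3.3 and scipy 1.17.1.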

Additional observations from a re-analysis of the deposited data

Results flagged for a closer look

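The effect of the knockout on Hcn4 differed between the stages by a test of the difference itself. The log2 fold change at 4 weeks minus that at E10.5 was -2.32 ± 0.35 (SE, limma adjusted p = 7.02e-05), and Hcn4 was lower in 3 of 3 knockout samples at each stage. Med30 itself differed the other way, by 1.56 ± 0.35 (SE, limma adjusted p = 0.00155), and by 0.91 ± 0.37 after median-ratio scaling (limma adjusted p = 0.0533). The part of stage, Cre driver and sample type in this difference cannot be told apart.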

How the results depend on the processing

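The log2 fold change of Hcn4 at E10.5 kept its direction in all 15 alternatives and its side of the p threshold in 7. It was -0.98 with no filter on low values (adjusted p = 0.185), -0.87 with median-ratio scaling (0.0503), -0.81 when scaled to all but the 20 most abundant genes (0.0592) and -0.98 under eBayes without trend (0.0642). With each replicate left out in turn it ranged from -1.17 to -0.76, with limma adjusted p of 0.0194 to 0.106, and it passed the fold threshold of 1 with a pseudocount of 0.01 (-1.002), without cKO replicate 1 (-1.17, limma adjusted p = 0.0309) and without cKO replicate 2 (-1.03, 0.0776). No filter adds genes with few reads to the test, and otherwise the cause was not tested. The difference of the effects on Hcn2 was -1.15 with a pseudocount of 1 and -1.22 to -0.60 with each replicate left out. Hcn2 and Hcn4 at 4 weeks, and the difference for Hcn4, kept direction and side of the threshold in every alternative run, over -2.03 to -1.28, -3.75 to -1.84 and -2.89 to -1.002 with other settings. Hcn3 passed the threshold in none, and its sign turned with a pseudocount of 0.01 (-0.54 at E10.5, 0.30 at 4 weeks and 0.84 for the difference). With each replicate left out Hcn3 ranged from -0.55 to 0.54 at E10.5, -0.18 to 0.29 at 4 weeks and -0.55 to 0.53 for the difference, and Hcn2 at E10.5 from -0.91 to -0.29. A mean RPKM above 5 left no value for Hcn2 at E10.5, Hcn3 at either stage, Hcn4 at 4 weeks or the differences. Calls at 4 weeks went from 804 lower and 2668 higher to 1476 and 1106 with median-ratio scaling, 1336 and 1206 with quantile normalization and 454 and 1687 with a mean RPKM above 5. Calls at E10.5 ranged from 1 to 100 lower, against 59, and from 0 to 48 higher, against 26, the lowest with no filter and 100 lower without cKO replicate 3. Deviations of same-numbered samples had correlations of -0.07 to 0.10 at E10.5 and 0.04 to 0.15 at 4 weeks. With 3 samples per group, such low values cannot decide whether the numbers mark pairs, and the main fits used no pairing. With the replicate block, Hcn4 was at -0.98 at E10.5 (adjusted p = 0.0206), and no call on a member changed.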
